A study of Homo sapiens with 2 samples.

Results

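The integrin, cadherin and claudin genes encode the main surface receptors by which epithelial cells hold on to the matrix and to each other. They were taken as every name present in both libraries that carries an ITGA, ITGB, CDH or CLDN symbol, without the integrin binding protein genes ITGB1BP and ITGB3BP. This gave 74 of 24991 names: 18 integrin alpha genes, 9 integrin beta genes (among them ITGBL1, an integrin beta-like gene that encodes no receptor subunit), 23 cadherin genes and 24 claudin genes. RNA was sequenced from PLC, a human liver cancer cell line, in 2 states. The EV cells carried an empty vector and are labelled WT, and the PRSS35 cells stably over-expressed PRSS35, a secreted protein of the serine protease family. Both were untreated, shared the same parental line and medium, and gave 1 library each, so differences below could not be checked against replicates and carry no p-value.

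Integrins are pairs of 1 alpha and 1 beta chain that bind matrix proteins or, on leukocytes, other cells, and link them to actin through talin and kindlin. Classical cadherins bind their like on the neighbouring cell in a calcium-dependent way and are anchored to actin by catenins, while claudins form the strands of the tight junction that seal bile canaliculi in the liver. Alpha and beta chains reach the cell surface only as pairs, and the set of claudins a cell makes decides which ions and solutes pass between cells.

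The values are FPKM, fragment numbers corrected for how long the transcripts of a locus are and how many fragments its library mapped. They can be compared between genes as far as the transcript lengths used for each locus hold. Each value is given with the lower and upper bound that Cufflinks put around it, a range for error inside 1 library that holds nothing of the variation between cultures. Depth was estimated from these bounds at 31458060 fragments in EV and 31541195 in PRSS35. PRSS35 itself stood at an FPKM of 0.643 in EV and 1836 in PRSS35 cells. Of the liver markers, 7 of 8 were expressed, with a summed FPKM of 3371 in EV and 5127 in PRSS35 cells (844 and 888 without SERPINA1), and all 3 epithelial markers (KRT8, KRT18 and EPCAM) were expressed, with sums of 5283 and 4709.7. Changes are log2((FPKM in PRSS35 + 1)/(FPKM in EV + 1)), which understates the change of low genes. Names whose FPKM averaged 1 or more across the libraries are called expressed. A member is called higher or lower at 2-fold on this scale, and separately where its bounds in the libraries do not touch.

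Of the 74 genes, 24 were expressed: 10 integrin alpha, 3 integrin beta, 3 cadherin and 8 claudin genes. Another 22 were listed at 0 in both libraries, and 28 lay below 1 FPKM but above 0 in at least 1 library. Leaving out 2 joined loci, the receptors together had a summed FPKM of 489.7 in EV and 588 in PRSS35 cells, or 484 and 514 without ITGAE and ITGB4. ITGB5, CLDN1 and ITGA5 led in both, with 30.5%, 19.0% and 14.1% of that sum in EV and 28.9%, 14.4% and 12.3% in PRSS35 cells. PXN, which encodes paxillin, a focal adhesion protein of adherent cells, was listed at 0 in both. Cufflinks marked 1 locus in each library as failed. Whether a value listed at 0 means that no RNA was present was not tested. In whole-culture RNA, fewer cells of a kind and less RNA per cell cannot be told apart.

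**Figure D1:**
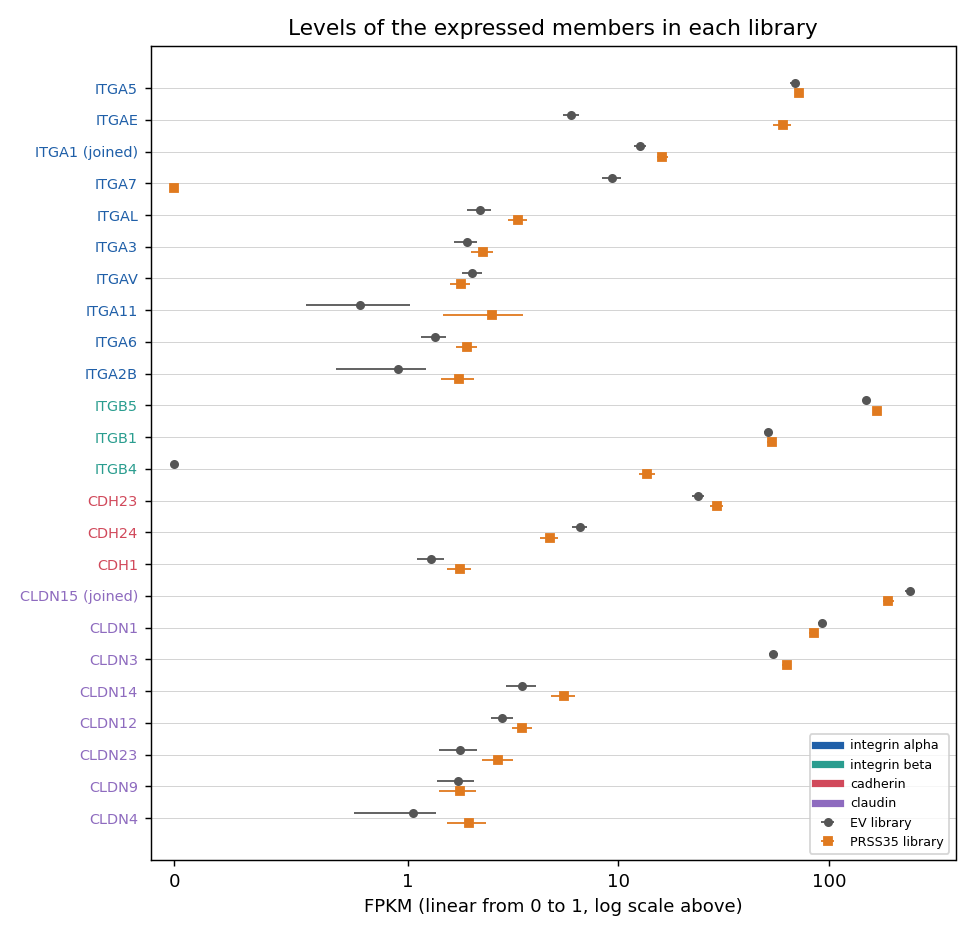
FPKM (x axis, linear from 0 to 1 and logarithmic above) of the 24 expressed integrin, cadherin and claudin genes in the EV library (circles) and the PRSS35 library (squares), with the Cufflinks bounds as lines; 1 library per state. ITGB5, CLDN1, ITGA5, CLDN3 and ITGB1 lie near or above 50 in both libraries, while ITGA7 is listed at 0 in PRSS35 and ITGB4 at 0 in EV cells.

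Promoters of 4 genes are shown, from members with a high FPKM and members listed at 0 in both libraries. CG counts ran from 0 to 43 over all matched members, so the highest counts are not among those shown. They run from 250 bases before to 50 bases after the start site, are from RefSeq on GRCh38.p14, a later build than that of the expression tables, and are read 5′ to 3′ on the strand of the gene with CG dinucleotides in capitals. ITGB5, the highest member apart from the joined CLDN15 locus, has 32 CG at chr3:124887316-124887615 (minus strand), which is 1 of its 3 promoter windows. CLDN1, the highest claudin on a locus of its own, has 31 at chr3:190322397-190322696 (minus strand). CLDN7, listed at 0 in both libraries, has 30 at chr17:7262429-7262728 (minus strand), which is 1 of its 2 windows. CLDN17, also listed at 0 in both, has 0 at chr21:30166756-30167055 (minus strand).
ITGB5: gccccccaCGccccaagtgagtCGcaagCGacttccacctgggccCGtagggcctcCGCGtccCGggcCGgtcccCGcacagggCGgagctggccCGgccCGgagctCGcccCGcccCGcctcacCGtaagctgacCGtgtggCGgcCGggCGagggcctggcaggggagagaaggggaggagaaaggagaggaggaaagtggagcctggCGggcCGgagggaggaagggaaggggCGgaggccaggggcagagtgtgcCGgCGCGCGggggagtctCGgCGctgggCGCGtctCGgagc
CLDN1: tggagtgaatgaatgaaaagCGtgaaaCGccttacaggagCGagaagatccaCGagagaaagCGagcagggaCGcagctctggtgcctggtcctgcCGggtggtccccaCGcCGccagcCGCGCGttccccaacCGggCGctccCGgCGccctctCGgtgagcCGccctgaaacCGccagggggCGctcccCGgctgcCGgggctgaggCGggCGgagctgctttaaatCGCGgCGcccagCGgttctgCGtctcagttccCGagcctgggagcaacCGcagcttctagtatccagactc
CLDN7: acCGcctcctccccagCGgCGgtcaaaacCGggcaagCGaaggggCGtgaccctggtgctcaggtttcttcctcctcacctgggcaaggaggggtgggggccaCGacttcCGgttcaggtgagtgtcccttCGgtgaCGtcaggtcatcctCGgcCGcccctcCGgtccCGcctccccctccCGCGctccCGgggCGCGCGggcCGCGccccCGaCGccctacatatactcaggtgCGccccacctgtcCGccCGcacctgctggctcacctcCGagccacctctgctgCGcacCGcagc
CLDN17: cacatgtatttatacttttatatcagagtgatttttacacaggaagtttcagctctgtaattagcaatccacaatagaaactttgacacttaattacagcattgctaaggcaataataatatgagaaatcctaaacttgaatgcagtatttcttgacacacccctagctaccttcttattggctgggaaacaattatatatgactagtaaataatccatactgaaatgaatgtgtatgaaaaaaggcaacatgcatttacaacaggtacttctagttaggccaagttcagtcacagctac

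A promoter entry was matched by symbol for 49 of the 74 genes. Some genes have more than 1 promoter window, and 1 window per gene was counted, so other start sites are not covered. At least 10 CG dinucleotides stood in 14 of 16 matched promoters of expressed members (87.5%, median 21.0 CG), in 8 of 17 of members below 1 FPKM (47.1%, median 9.0) and in 9 of 16 of members listed at 0 in both libraries (56.2%, median 12.5). Over all promoters in the table the share was 58.5%, over all expressed names 94.9% and over all names at 0 in both libraries 38.1%. The expressed receptors whose window held fewer than 10 CG were CLDN4 with 5 and ITGA2B with 2. The window of CLDN7, listed at 0 on a locus that Cufflinks assembled in both libraries, had nearly as many as that of CLDN1. The letters CACCTG or their reverse complement CAGGTG, the E-box form bound by SNAI and ZEB proteins, were searched on both strands. They occurred in 4 of 16 windows of expressed members (25.0%), in 3 of 17 of members below 1 FPKM (17.6%) and in 2 of 16 of members listed at 0 in both libraries (12.5%), where the CLDN7 window held 5. Over all promoters the share was 20.5%, over all expressed names 18.2% and over all names at 0 in both libraries 22.2%. A match is a description of the sequence and not a measured binding site.

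For the receptors as a whole, more members were higher than lower in PRSS35 cells, mostly by small amounts. Of the 24 expressed members, 2 (ITGAE and ITGB4) were higher by 2-fold or more, where the share over all 10133 expressed names was 1.89%, and 1 (ITGA7) was lower, where it was 1.84% (3.73% in either direction). Bounds were separate and higher for 14 members and separate and lower for 4 (ITGA7, CDH24, CLDN1 and the joined CLDN15 locus), beside 24.7% and 14.3% over all expressed names (39.0% in either direction). The bounds of the other 6 (ITGA5, ITGA3, ITGAV, ITGB1, CLDN12 and CLDN9) overlapped. Among the 14 higher members, ITGAE, ITGA11 and CDH23 had fewer fragments implied by their bounds in PRSS35 cells (ratios 0.830, 0.484 and 0.963). ITGB4 was listed at 0 in EV cells, and the rest of the 14 had more implied fragments in PRSS35 cells. The median log2 change was 0.26, beside 0.06 over all expressed names, whose quartiles were -0.10 and 0.22. By group the medians were 0.32 for integrin alpha, 0.18 for integrin beta, 0.27 for cadherin and 0.22 for claudin genes. With values rescaled so that all loci add to the same FPKM, the median of all names moved to 0.68 and that of the members to 0.84, so directions here are relative to the deposited scale. With only named loci made to add to the same FPKM, these medians were 0.10 and 0.29, and 0 of the 24 members changed sign. Summed FPKM was 2469029.6 in EV and 1508529 in PRSS35 cells over all loci, and 856880.1 and 831519.9 over named loci.

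**Figure D2:**
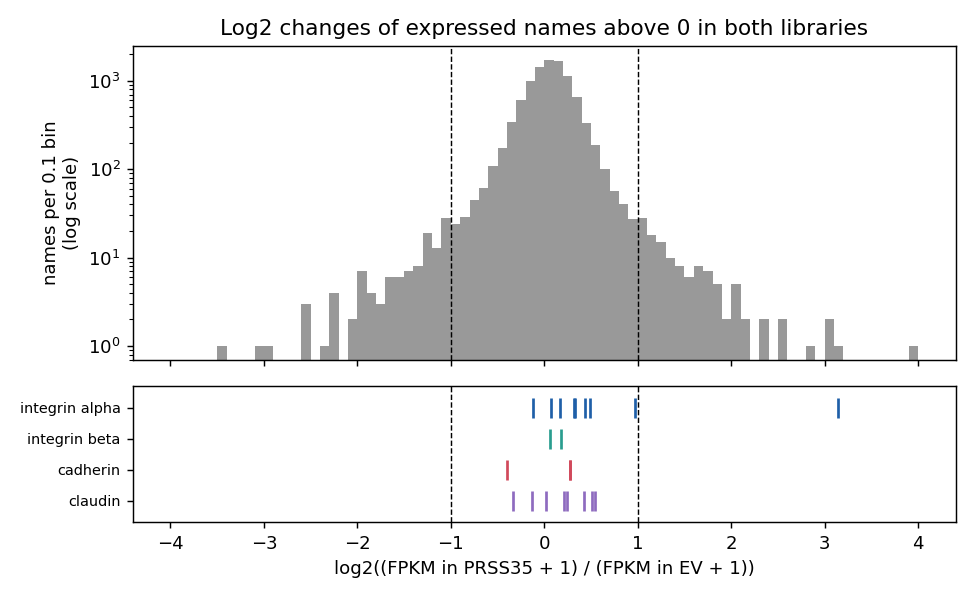
Number of names per bin of 0.1 log2 (upper panel, log axis, 9992 expressed names above 0 in both libraries, values beyond 4 drawn in the last bin) over the same x axis as the 22 members above 0 in both (lower panel, 1 line per gene, by family). Apart from ITGAE at 3.14 and ITGA11 at 0.97, the members lie within the central part of the histogram.

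Among integrin alpha genes, ITGA5, which pairs with ITGB1 as the classical fibronectin receptor, was the highest on a locus of its own. At chr12:54789045-54813050 of hg19 (minus strand), its FPKM was 68.9 (65.7 to 72.1) in EV and 72.4 (69.0 to 75.7) in PRSS35 cells (log2 change 0.07) with overlapping bounds. It made up 72.2% of the alpha sum in EV and 48.8% in PRSS35 cells. This shift in share came with the value of ITGAE, since ITGA5 itself differed by less than its bounds.

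ITGAE, at chr17:3617919-3704537 (minus strand), encodes CD103, the alpha chain that pairs with ITGB7 on intraepithelial lymphocytes and binds CDH1. Its FPKM was 5.97 (5.44 to 6.51) in EV and 60.4 (54.5 to 66.3) in PRSS35 cells, which is 10.1 times as high and a log2 change of 3.14. The bounds are far apart. The number of fragments implied by the same bounds went the other way, from 499 in EV to 414 in PRSS35 cells, a ratio of 0.830, so that 1 fragment was worth 12.2 times as much FPKM in the PRSS35 table. Both libraries carry ITGAE on a gene model that Cufflinks assembled from the reads of that library, and the part of the assembled model in this difference was not tested. HASPIN, called GSG2 in the tables, lies inside ITGAE on the opposite strand and had an FPKM of 5.42 in EV and 7.34 in PRSS35 cells. The library kit does not mark strand. ITGB7, the partner of ITGAE, stood at 0.287 (0.134 to 0.441) and 0.232 (0.111 to 0.352).

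ITGA7, a laminin receptor chain best known from muscle, lies at chr12:56078325-56106089 (minus strand). Its FPKM was 9.33 (8.34 to 10.3) in EV cells, with 354 implied fragments, and it was listed at 0 in PRSS35 cells. The locus was assembled in both libraries. METTL7B, which overlaps ITGA7 on the opposite strand and shares 44 exon bases with it, had an FPKM of 65.0 in EV and 88.0 in PRSS35 cells. No fold is given against a value listed at 0.

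ITGA11, a collagen receptor chain of fibroblasts, came closest to the 2-fold call among the uncalled members, with an FPKM of 0.793 (0.565 to 1.02) in EV and 2.51 (1.47 to 3.54) in PRSS35 cells (log2 change 0.97). The implied fragments were 48.6 and 23.5, again in the opposite direction, with 6.54 times as much FPKM per fragment in PRSS35 cells. ITGA11 and ITGAE were the 2 of 22 expressed members above 0 in both libraries whose FPKM per fragment differed by more than 1.5 times, a share to set beside 15.6% over 9992 names. Among the 2373 of these names whose locus kept its annotation in both libraries, that share was 1.10%.

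The remaining expressed alpha genes were low, and most were modestly higher in PRSS35 cells. ITGAL, the alpha chain of the leukocyte receptor LFA-1, had an FPKM of 2.2 (1.91 to 2.49) and 3.33 (2.99 to 3.67), a log2 change of 0.44. ITGA2B, which forms the platelet fibrinogen receptor with ITGB3, had 0.958 (0.692 to 1.22) and 1.75 (1.43 to 2.07), a log2 change of 0.49. Beside them, the leukocyte markers PTPRC, CD3E and ITGB2 and the platelet markers PF4 and GP9 were listed at 0 in both libraries. The leukocyte marker CD14 was listed at 0 in EV and stood at 0.234 (0.0572 to 0.411) in PRSS35 cells, with separate bounds. Of the 7 leukocyte markers 2 were expressed, LYZ and ITGAL, and the list sum was 96.2 in EV and 107 in PRSS35 cells, nearly all of it LYZ at 94.0 and 104. Of the 3 platelet markers only ITGA2B was expressed, with a list sum of 0.958 and 1.75.

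ITGA6, the laminin receptor chain that pairs with ITGB4 in hemidesmosomes, had an FPKM of 1.34 (1.15 to 1.52) in EV and 1.91 (1.69 to 2.14) in PRSS35 cells (log2 change 0.32) on a locus annotated in both libraries. ITGA3, another laminin receptor chain, had 1.90 (1.66 to 2.14) and 2.27 (2.0 to 2.54), and ITGAV, which binds RGD ligands such as vitronectin, had 2.02 (1.81 to 2.24) and 1.78 (1.58 to 1.98). Both pairs of bounds overlap. ITGA1, a collagen receptor chain, is carried on a locus joined with PELO, a gene for ribosome rescue that lies inside it on the same strand. The joined FPKM was 12.7 (11.8 to 13.6) in EV and 16.2 (15.2 to 17.3) in PRSS35 cells, and the part of each gene cannot be told apart.

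Of the 8 alpha genes that were not expressed, ITGA8 was listed at 0 in both libraries. ITGA10, a collagen receptor chain of cartilage, had separate bounds, with an FPKM of 0.272 (0.182 to 0.361) in EV and 0.576 (0.449 to 0.703) in PRSS35 cells. ITGA9 had 1.07 (0.722 to 1.41) and 0.575 (0.314 to 0.836), with bounds that overlap. ITGA2, the alpha chain of the main platelet and epithelial collagen receptor, was nearly equal at 0.393 and 0.394. The leukocyte chains ITGAD, ITGAM and ITGAX, which lie side by side on chromosome 16, and ITGA4 stayed below 0.2 FPKM, and ITGAX was listed at 0 in EV cells.

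Among integrin beta genes, ITGB5 and ITGB1 carried nearly all of the signal. ITGB5, which pairs with ITGAV as a vitronectin receptor, lies at chr3:124480795-124606634 (minus strand) and had an FPKM of 149.6 (145 to 154) in EV and 169.7 (165 to 175) in PRSS35 cells (log2 change 0.18) with separate bounds. The locus was assembled in both libraries, and in PRSS35 cells it overlapped that of UMPS, which had an FPKM of 11.1. The log2 change of ITGB5 was 0.11 with the upper quartile set equal and 0.12 with centring on the median. ITGB1, the common partner of the collagen, laminin and fibronectin receptor chains, lies at chr10:33189246-33294633 (minus strand) and had 51.4 (49.2 to 53.7) and 53.7 (51.1 to 56.3). Its bounds overlap. Its implied fragments were 2181 in EV and 1686 in PRSS35 cells. ITGB5 ranked 891 of 10133 expressed names in EV and 769 in PRSS35 cells, and ITGB1 ranked 1967 and 1952.

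ITGB4, the beta chain of the hemidesmosome receptor, lies at chr17:73717516-73753899 (plus strand). It was listed at 0 in EV cells and had an FPKM of 13.7 (12.5 to 15.0) with 481 implied fragments in PRSS35 cells, on a locus assembled in both libraries. Over all expressed names, 1.39% were listed at 0 in 1 library. GALK1 overlaps part of ITGB4 on the opposite strand and shares no exon bases with it. The other beta genes were listed at 0 or stood at low FPKM. ITGB2, the common beta chain of leukocyte integrins, and ITGBL1 were listed at 0 in both libraries. The ITGBL1 locus was assembled in both libraries and the ITGB2 locus in PRSS35 cells. ITGB3 stood at 0.0207 and 0.0206. ITGB6 was listed at 0 in EV and stood at 0.00768 in PRSS35 cells. ITGB8 stood at 0.00748 in EV and was listed at 0 in PRSS35 cells.

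Set side by side, the chains of known pairs were present at unequal FPKM. ITGB5 exceeded ITGAV, its only alpha partner, 73.9 times in EV and 95.4 times in PRSS35 cells. The implied fragments lay closer together, 4424 and 4782 for ITGB5 and 356 and 319.5 for ITGAV. The ITGB5 locus was assembled and the ITGAV locus annotated in both libraries, and the part of the models in this ratio was not tested. ITGB1 stood at 0.598 and 0.651 of the summed FPKM of 11 alpha partners (ITGA1 was left out because of its joined locus). In PRSS35 cells ITGB4 was 7.17 times as high as ITGA6, with 481 and 291 implied fragments. The leukocyte chains that need ITGB2 summed to 2.42 in EV and 3.63 in PRSS35 cells, while ITGB2 was listed at 0 in both. These are RNA levels, and protein at the surface was not measured here.

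Among cadherin genes, 3 of 23 were expressed, and the best known of them were low or listed at 0. CDH1, the E-cadherin of epithelial adherens junctions, lies at chr16:68771195-68869444 (plus strand) and had an FPKM of 1.29 (1.10 to 1.48) in EV and 1.77 (1.54 to 1.99) in PRSS35 cells (log2 change 0.27) with separate bounds on a locus annotated in both libraries. Its implied fragments were 179 and 245. CDH1 thus stood low in both cell states, at rank 9464 and 8984 of 10133 expressed names. CDH2, the N-cadherin that hepatocytes also carry, was listed at 0 in both libraries. CDH3, the neighbour of CDH1 at a distance of 38.2 kb, was listed at 0 in EV and stood at 0.00793 in PRSS35 cells, which is the worth of 1 fragment.

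CDH23, a very long cadherin of the tip links of hair cells, was the highest, at chr10:73156691-73575704 (plus strand), with an FPKM of 24.0 (22.4 to 25.6) in EV and 29.4 (27.3 to 31.4) in PRSS35 cells (log2 change 0.28). It made up 72.4% and 77.9% of the cadherin sum. The implied fragments differed less between the libraries, 878 and 846, and lay in the other direction. CDH24, the next highest cadherin, had 541 and 401, closer to CDH23 than its FPKM of 6.56 and 4.71. The CDH23 locus was assembled in both libraries, and the part of the models in its level and share was not tested. VSIR, called C10orf54 in the tables, lies inside CDH23 on the opposite strand without shared exon bases and had an FPKM of 36.6 in EV and 40.6 in PRSS35 cells. Without strand in the reads, fragments of CDH23 and of genes inside it cannot be told apart where they overlap.

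CDH24, a type II cadherin that binds catenins, was the only expressed cadherin that was lower on the deposited scale (its log2 change was 0.20, below the shift of 0.68 of all names, when all loci were made to add to the same FPKM). At chr14:23516270-23526747 (minus strand), its FPKM was 6.56 (5.99 to 7.12) in EV and 4.71 (4.24 to 5.18) in PRSS35 cells (log2 change -0.40) with separate bounds. The locus kept its annotation in both libraries, and the implied fragments, 541 and 401, had a ratio of 0.741 beside an FPKM ratio of 0.718. Below 1 FPKM, CDH18 had 0.463 (0.306 to 0.621) and 0.922 (0.704 to 1.14), with separate bounds and implied fragments of 34.6 and 71.7.

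The other 19 cadherin genes gave no expressed value in either state. CDH15, the M-cadherin of muscle, stood at 0.406 and 0.393, CDH9 at 0.159 and 0.238, and CDH17, the liver-intestine cadherin, at 0.149 and 0.139, all with overlapping bounds, and CDH4, CDH7, CDH16 and CDH19 stayed below 0.1 FPKM. Of the endothelial markers, CDH5, the cadherin of vascular endothelium, was listed at 0 in EV and stood at 0.00824 in PRSS35 cells, and the 5 markers summed to 0.104 and 0.171. Of the stellate cell and fibroblast markers, CDH11 was listed at 0 in both libraries, and only PDGFRB of 6 was expressed, with list sums of 1.75 and 2.08. In all, 10 cadherin genes were listed at 0 in both libraries: CDH2, CDH6, CDH8, CDH10, CDH11, CDH12, CDH13, CDH20, CDH22 and CDH26.

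Among claudin genes, CLDN1 and CLDN3 dominated, and on the deposited scale CLDN1 was lower and CLDN3 higher in PRSS35 cells. CLDN1, a sealing claudin that is also a hepatitis C virus entry factor, lies at chr3:190023490-190040235 (minus strand) and had an FPKM of 92.8 (88.6 to 97.1) in EV and 84.6 (80.6 to 88.5) in PRSS35 cells (log2 change -0.13). CLDN3, another sealing claudin and a gene of a single exon, lies at chr7:73183327-73184600 (minus strand) and had 54.5 (51.8 to 57.1) and 63.0 (60.1 to 65.8), a log2 change of 0.21. The bounds of each are separate, and the gaps are narrow. CLDN1 made up 58.1% of the claudin sum in EV and 51.3% in PRSS35 cells, and CLDN3 34.1% and 38.2%. With values rescaled so that all loci add to the same FPKM, CLDN1 came out at a log2 change of 0.57, below the shift of 0.68 of all names.

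Among the low claudins, CLDN14, CLDN4 and CLDN23 were higher. CLDN14, at chr21:37832920-37948867 (minus strand), a claudin that blocks cation passage in kidney and inner ear, had an FPKM of 3.49 (2.93 to 4.04) in EV and 5.52 (4.81 to 6.22) in PRSS35 cells (log2 change 0.54). CLDN4, at chr7:73245193-73247023 (plus strand) and 60.6 kb from CLDN3, had 1.06 (0.768 to 1.36) and 1.94 (1.54 to 2.34), a log2 change of 0.51. CLDN23 had 1.76 (1.40 to 2.13) and 2.69 (2.24 to 3.14), a log2 change of 0.42. These 3 loci kept their annotation in both libraries, and their bounds are separate. Their implied fragments went from 157 to 243, from 51.9 to 94.6 and from 91.3 to 142. CLDN12, which lacks the usual binding motif of claudin tails, had 2.81 (2.47 to 3.15) and 3.50 (3.11 to 3.89), and CLDN9 had 1.72 (1.37 to 2.07) and 1.76 (1.40 to 2.11), both with overlapping bounds.

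CLDN15, a pore-forming claudin of the gut, is carried on a locus joined with FIS1, a gene for mitochondrial fission. The joined FPKM was 242 (229 to 255) in EV and 192 (181 to 203) in PRSS35 cells with separate bounds, and the part of each gene cannot be told apart. The log2 change was -0.33 on the deposited scale and 0.37 under the same rescaling. Below 1 FPKM, CLDN16, a kidney claudin of magnesium transport that lies 65.4 kb from CLDN1, stood at 0.944 and 0.879, and CLDN6, an embryonic claudin that lies 207 bases from CLDN9 on the opposite strand, at 0.433 and 0.438. CLDN2, the cation pore of bile duct and kidney, stood at 0.0721 and 0.0960, and CLDN5, the claudin of vascular endothelium, at 0.0665 and 0.140, each with overlapping bounds. CLDN11, CLDN19 and CLDN34 were likewise below 0.2 FPKM. The 9 claudin genes listed at 0 in both libraries were CLDN7, CLDN8, CLDN10, CLDN17, CLDN18, CLDN20, CLDN22, CLDN24 and CLDN25.

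Taking all families, 10 members were listed at 0 in 1 library only. Besides ITGA7 and ITGB4, these were ITGAX, ITGB6, ITGB8, CDH3, CDH4, CDH5, CDH7 and CLDN34, each below 0.1 FPKM in the library where it was above 0. The loci of the 3 members called at 2-fold (ITGAE, ITGB4 and ITGA7) were all assembled in both libraries, a class in which 4.29% of expressed names were called in either direction, beside 1.38% of names annotated in both and 4.90% of names assembled in 1 library. Of the 24 expressed members, 10 were annotated in both libraries. In these 10, bounds were separate and higher for 6 (ITGA6, CDH1, CLDN3, CLDN14, CLDN23 and CLDN4) and separate and lower for 1 (CDH24), beside 23.5% and 6.86% of all expressed names annotated in both, and none was called at 2-fold.

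The genes that these receptors work with were read from 8 lists with 121 entries, 74 of them expressed. At 2-fold 1 was higher and 2 were lower, close to the 3.73% of all expressed names called in either direction, and bounds were separate and higher for 16 and lower for 15, beside 24.7% and 14.3% of all expressed names. TJP3, a scaffold of the tight junction, was listed at 0 in EV and had an FPKM of 3.09 (2.69 to 3.49) in PRSS35 cells. PARD6G, a polarity protein, had 8.60 (6.44 to 10.8) in EV and 1.86 (1.58 to 2.13) in PRSS35 cells (log2 change -1.75). MADCAM1, a ligand of lymphocyte integrins, had 4.05 (2.15 to 5.94) and 0.277 (0.0360 to 0.519), a log2 change of -1.98. Each of these was on a locus assembled in at least 1 library.

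Catenins, which tie cadherins to actin, were abundant beside the low cadherin RNA. In the cadherin-catenin list of 8, 6 were expressed, with a median log2 change of 0.20. Bounds were separate and higher for 4 and lower for 1, beside 24.7% higher and 14.3% lower over all expressed names. JUP, the plakoglobin of desmosomes and adherens junctions, was lower at 272 (263 to 281) in EV and 250.3 (242 to 259) in PRSS35 cells. CTNNB1, which encodes beta-catenin, was higher at 30.2 (28.9 to 31.6) and 37.7 (36.1 to 39.2), a log2 change of 0.31 on a locus annotated in both libraries. CTNNA1, which encodes alpha-catenin, had 60.7 (57.8 to 63.6) and 69.4 (66.1 to 72.7), CTNND2 had 7.17 (6.69 to 7.65) and 8.51 (8.02 to 9.0), and CTNND1, joined with TMX2, had 152 (147 to 157) and 177 (171 to 183). Among nectins and afadin, 4 of 6 were expressed. PVR was higher at 16.0 (14.9 to 17.1) and 20.0 (18.7 to 21.3), and PVRL2, the highest, had 113 (108 to 117) and 104 (100.2 to 109).

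In the desmosome list, 5 of 14 were expressed and the bounds of all 5 overlapped, with DSP highest at 12.5 and 13.1, PKP4 at 6.74 and 7.11 and PKP2 at 4.58 and 4.95. The EV bounds of PKP2 ran from 0 to 41981, so its overlap says nothing. Of 9 repressors of CDH1 transcription, 3 were expressed, TCF3 at 43.1 in each library, SNAI1 at 7.67 (6.84 to 8.50) and 9.09 (8.19 to 9.99) and TWIST2 at 6.06 and 5.50, all with overlapping bounds, and ZEB1 stood at 0.189 and 0.150. Of 9 proteases that cut cadherins, 7 were expressed. PSENEN, a gamma-secretase subunit, had 318 (303 to 334) in EV and 262 (249 to 275) in PRSS35 cells and ADAM15 had 60.7 (57.6 to 63.8) and 54.3 (51.5 to 57.0), while NCSTN with 32.5 (30.6 to 34.4) and 38.6 (36.5 to 40.7) was higher. APH1A, at 170.3 and 163, overlapped.

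Of the 23 tight junction partners, 15 were expressed. Bounds were separate and higher for 4 and lower for 2, beside 24.7% higher and 14.3% lower over all expressed names. F11R, the junctional adhesion molecule JAM-A, had an FPKM of 14.7 (14.1 to 15.4) in EV and 20.6 (19.9 to 21.4) in PRSS35 cells (log2 change 0.46). MARVELD3, a relative of occludin, had 6.76 (6.09 to 7.43) and 9.88 (9.06 to 10.7), a log2 change of 0.49. PARD6A, a polarity protein and the highest of the list, was lower at 36.5 (33.8 to 39.2) and 26.4 (24.2 to 28.5), a log2 change of -0.45. PRKCZ, the next highest, had overlapping bounds at 22.6 and 21.4. Occludin itself, OCLN, stood at 1.47 and 1.46.

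In the adhesome list of cytoplasmic and membrane partners of integrins, 23 of 30 were expressed, with bounds separate and lower for 6 and higher for 3, beside 14.3% lower and 24.7% higher over all expressed names, and a median log2 change of -0.02. Lower were PARVB, which binds integrin-linked kinase, at 92.8 (88.3 to 97.4) in EV and 66.3 (62.6 to 70.0) in PRSS35 cells, and ZYX, the zyxin of focal adhesions, at 181 (175 to 187) and 134 (129 to 138). FLNA, BCAR1, CD151 and SHARPIN were also lower, with log2 changes between -0.22 and -0.15. ACTN1, VCL and TNS3 were higher, with log2 changes between 0.16 and 0.19. ILK, the kinase that PARVB binds, had 126 (121 to 130.4) and 123 (118 to 128), ACTN4 had 157 and 167, and TLN1, the talin that activates integrins, had 93.2 and 96.5 on a locus joined with a microRNA gene, all with overlapping bounds.

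Of 22 integrin ligands other than collagens and laminins, 11 were expressed. Bounds were separate and lower for 4 and higher for 2, beside 14.3% lower and 24.7% higher over all expressed names. VTN, the vitronectin that ITGAV and ITGB5 bind, was the highest at 370.3 (354 to 387) in EV and 368 (352 to 384) in PRSS35 cells. TGFB1, whose latent form integrins bind, was lower at 228 (219 to 236) and 171 (163 to 179), as were CYR61 at 85.0 (80.8 to 89.2) and 69.9 (67.8 to 72.0) and ICAM1, the ligand of LFA-1, at 34.4 (32.4 to 36.3) and 29.2 (27.6 to 30.9). FN1, the fibronectin that ITGA5 and ITGB1 bind, was higher at 117 (114 to 119) and 126 (123 to 129), a log2 change of 0.11, and NID1 was higher at 15.8 (14.9 to 16.7) and 17.4 (16.7 to 18.0). The median log2 change of the ligands was -0.08, beside 0.06 over all expressed names.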

How the data were processed

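RNA from EV and PRSS35 cells, 1 library each, was sequenced by the authors with a kit that does not mark strand. Per the labels and the study's methods, they aligned reads to hg19 with TopHat2 (2.1.0) and assembled and quantified transcripts with Cufflinks (2.2.1; the labels list Cuffdiff). The labels also list the build dm6 for both libraries, and its role is not known. The annotation release is not given in the sources used here. The deposited values are FPKM per locus, with a lower and an upper bound. Loci that Cufflinks assembled itself are called assembled here, and loci that kept a gene name as identifier annotated. The tables hold no counts, so no count test was run.

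Loci were matched by name, those on unplaced contigs or alternate haplotypes were dropped, and FPKM was summed over loci of 1 name. A locus carrying several names is called joined. Members and gene lists were chosen with earlier results of these data known. Named were the expressed members, members joined or at 0 in 1 library, markers of other cell types, and of each partner list the called and the 3 highest genes, some of which are not reported here. OCLN and ZEB1 were named after their values were seen. The fragments implied at a locus are the square of 2 FPKM over the distance to the upper bound, and uncertain assignment lowers them. A slope through 31 (EV) and 41 (PRSS35) single-exon genes whose implied fragments came within 0.01 of a whole number gave the depth. Intervals cover error within a library only. Every member's position overlapped its gene in GENCODE v44lift37, from which strands and overlaps were taken. The scripts were tested on simulated data. Scripts ran in Python (3.11.15) with pandas (2.3.3), numpy (2.4.6) and scipy (1.17.1), and figures were drawn with matplotlib (3.10.9).

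Alternatives were pseudocounts of 0.1 and 5 FPKM, 4 other scalings, the highest locus per name, no filter on level, a minimum mean FPKM of 5, no joined loci, names annotated in both libraries, alternate haplotypes kept and a 1.5-fold threshold. A restriction to names above 0 in both tables was chosen after seeing the data.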

Additional observations from a re-analysis of the deposited data

How the results depend on the processing

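With 1 library per state, variation between cultures was not measured. No paired analysis was possible because each state has 1 library. With values rescaled so that all loci add to the same FPKM, 4 members were higher at 2-fold (CLDN14 and ITGA11 were added). The same held for 1064 of all 10133 expressed names. Bounds were separate and higher for 22 members and lower for 1, beside 8891 and 182 of all expressed names. The median change was 0.84, 3 partner genes were higher, and 91.1% of all calls were higher in place of 50.8%. CDH24 (0.20), CLDN1 (0.57), CLDN15 with FIS1 (0.37) and ITGAV (0.35) changed sign, all below the shift of 0.68 that this scaling gives to all names. Among names annotated in both libraries, 0 members were higher and 0 lower at 2-fold, beside 17 and 16 of 2390 names. Bounds were separate and higher for 6 members and lower for 1, beside 23.5% and 6.86% of these names. In the partner lists, 0 genes were higher and 0 lower at 2-fold. Fewer genes enter under this setting. Restricted to names above 0 in both libraries, a choice made after seeing the data, 1 member was higher (ITGAE) and 0 lower. Of the 9992 expressed names kept, 123 were higher and 114 lower. In the partner lists, 0 genes were higher. At a mean FPKM of at least 5, which 11 members reached, 0 members were lower at 2-fold, beside 95 of 6593 names. Bounds were separate and higher for 6 members, beside 1899 of these names. In the partner lists, 0 genes were higher and 1 lower at 2-fold. With a pseudocount of 5 FPKM, 0 partner genes were higher and 0 lower. With no filter, the median change was 0.00, as most members lie near 0. ITGA11 was also called higher with a pseudocount of 0.1 FPKM, where its log2 change was 1.55, and at 1.5-fold. CLDN9 (-0.02) and ITGB1 (-0.01) changed sign with the upper quartile set equal, and CLDN9 (-0.05) with centring on the median. ITGAE was called under each alternative but the one that keeps annotated loci, where it was not tested. The others start from the same deposited FPKM of ITGAE, so they cannot test the part of its assembled model. Its implied fragments were 499 in EV and 414 in PRSS35 cells.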
